A study of Mus musculus with 8 samples.

Results

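A set of 10 antiviral genes that interferon induces, Ifit1, Ifit2, Ifit3, Oas1a, Oas2, Oasl2, Rsad2, Bst2, Ifi44 and Rtp4, were examined in cochlear RNA of WT and Opa1+/- mice. They were chosen by symbol from an interferon program whose difference between the genotypes in these same 8 libraries was already known, so their genotype values are a description and carry no test. The 10 genes are 10 of the 47628 entries that name a gene, and all 10 were among the 19366 genes with enough counts to be tested. Each library was made from isolated cochlea of 1 untreated mouse. The 4 WT mice (WT_4, WT_5, WT_6 and WT_8, by animal number) were littermate controls of the 4 Opa1+/- mice (Het_2, Het_7, Het_484 and Het_491), which carry 1 Opa1 allele with the delTTAG deletion knocked in, in every cell and from conception, on a mixed background of C57BL/6J and a further inbred strain. All were p21 mice by the study's methods, an age the study chose as earlier than the hearing deficit, and the study used both sexes. A whole cochlea is a mixture of hair cells, supporting cells, neurons, vessels, bone and blood, so that fewer cells of a type and less RNA per cell cannot be told apart.

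Type I interferons signal through the receptor pair Ifnar1 and Ifnar2 to the kinases Jak1 and Tyk2 and on to a transcription factor complex that contains Irf9 and binds the interferon-stimulated response element (ISRE) in the promoters of its target genes. Several of the products act directly on viral RNA or virions: IFIT proteins bind viral RNA that lacks the cap marks of the host, OAS enzymes make oligoadenylates that switch on RNase L, viperin (Rsad2) makes a chain-terminating nucleotide, and tetherin (Bst2) holds budding virions at the cell surface. Most tissues keep a low level of these transcripts without infection.

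The promoters are shown first, since the ISRE is the element through which this complex acts. RefSeq windows of GRCm38.p6, from 250 bases before to 50 bases after the start site, were at hand for 8 of the 10 genes, in 9 windows since Ifit2 has 2 start sites. Oas2 and Rtp4 had no window. The windows were searched on both strands for the ISRE, taken as 2 copies of the letters GAAA with any 2 bases between them, and for the gamma-activated site (GAS), written TTCNNNGAA. The ISRE was found in 5 of the 8 genes, Ifit1, Ifit3, Rsad2, Oas1a and Bst2, and in 3.44% of all 32851 windows. Ifit2 in both windows, Ifi44 and Oasl2 held no match to these letters. The 5 stretches that hold it are printed 5′ to 3′ on the strand of the gene, with the ISRE in capitals.
Ifit1: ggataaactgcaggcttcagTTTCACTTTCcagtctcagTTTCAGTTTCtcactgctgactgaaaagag
Ifit3: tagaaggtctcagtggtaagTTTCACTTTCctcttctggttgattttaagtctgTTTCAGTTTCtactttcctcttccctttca
Rsad2: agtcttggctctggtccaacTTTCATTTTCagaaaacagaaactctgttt
Oas1a: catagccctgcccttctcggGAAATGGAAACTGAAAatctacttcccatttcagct
Bst2: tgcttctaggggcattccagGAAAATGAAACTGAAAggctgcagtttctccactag
They lie at chr19:34640765-34640833 (Ifit1, plus strand), chr19:34583353-34583436 (Ifit3, plus strand), chr12:26456543-26456592 (Rsad2, minus strand), chr5:120907510-120907565 (Oas1a, minus strand) and chr8:71537567-71537622 (Bst2, minus strand).

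Ifit1 and Ifit3 each had 2 separate copies, with the element on the strand opposite to the gene, starting at positions -104 and -85 from the start site in Ifit1 and at -156 and -122 in Ifit3. Both promoters thus hold the same letters as each other in the upstream copy and again in the downstream copy. In Bst2 and Oas1a the 2 matches overlapped in 1 run of the gene's own strand, at -130 and -124 in Bst2 and at -20 and -14 in Oas1a. Rsad2 had a single match at -120. The GAS letters were in Ifit2 (1 of its 2 windows), Oas1a and Bst2, and in 8.30% of all windows, and in Bst2 the match overlapped the ISRE. Among genes outside the 10, the 426 tested genes with an ISRE in their window had a median log2 fold change of Opa1+/- over WT of 0.0054, and the 11623 without one had -0.016.

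**Figure D1:**
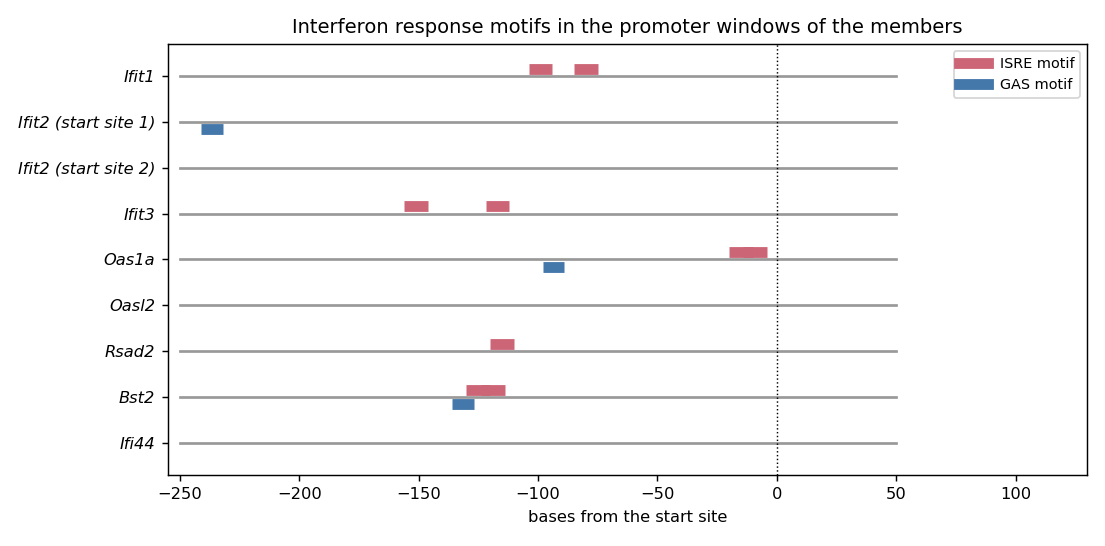
ISRE (red) and GAS (blue) matches in the 9 promoter windows of 8 members, drawn to scale in bases from the start site (dotted line), with 1 grey line per window. Matches to the ISRE start between -156 and -14 in 5 genes, and the windows of Ifi44 and Oasl2 are empty.

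Depth ran from 15978051 to 20828030 counts on named genes per library, and levels are given as CPM, counts scaled to a common library size with TMM factors, with the SD over 4 mice. Opa1, the targeted gene, was at 111.7 to 125.9 CPM in the WT libraries and 60.4 to 70.02 CPM in the Opa1+/- libraries, lower in each mouse labelled as a heterozygote (log2 fold change -0.87, adjusted p = 0.00515 by the quasi-likelihood test of edgeR). It was 1 of 5 genes past an adjusted p of 0.05. All 9 hair cell markers and all 8 spiral ganglion neuron markers searched for were detected. The labels give no batch but name TRI Reagent or an RNeasy kit for the RNA without saying which mouse had which, and p-values measure the spread between single mice.

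Summed over the 10 genes, the level was 136.2, 138.0, 134.6 and 125.9 CPM in WT_4, WT_5, WT_6 and WT_8, and 182.2, 190.0, 186.9 and 164.2 CPM in Het_2, Het_7, Het_484 and Het_491. The sums did not overlap, with means of 133.7 ± 5.39 and 180.8 ± 11.6 CPM (SD, n = 4 each) and a ratio of 1.35. The log2 fold change was above 0 in 10 of 10 genes, against 50.1% of all genes tested, with a median of 0.44 against 3.95e-04 for all genes. An adjusted p under 0.05 was reached by 0 of the 10 in edgeR, where 0.0258% of all genes passed in either direction and 0.0207% as higher, and by 0 of the 10 in the Wald test of DESeq2, where 0.114% were called higher. At an unadjusted p under 0.05, 5 of the 10 were higher in edgeR, against 3.51% of all genes, and 6 in DESeq2, against 2.76%. Every Opa1+/- mouse was above every WT mouse in 2 of the 10, Ifit1 and Bst2, against 1.98% of all genes. Since the genes were chosen on this contrast, nothing further is read from these counts.

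**Figure D2:**
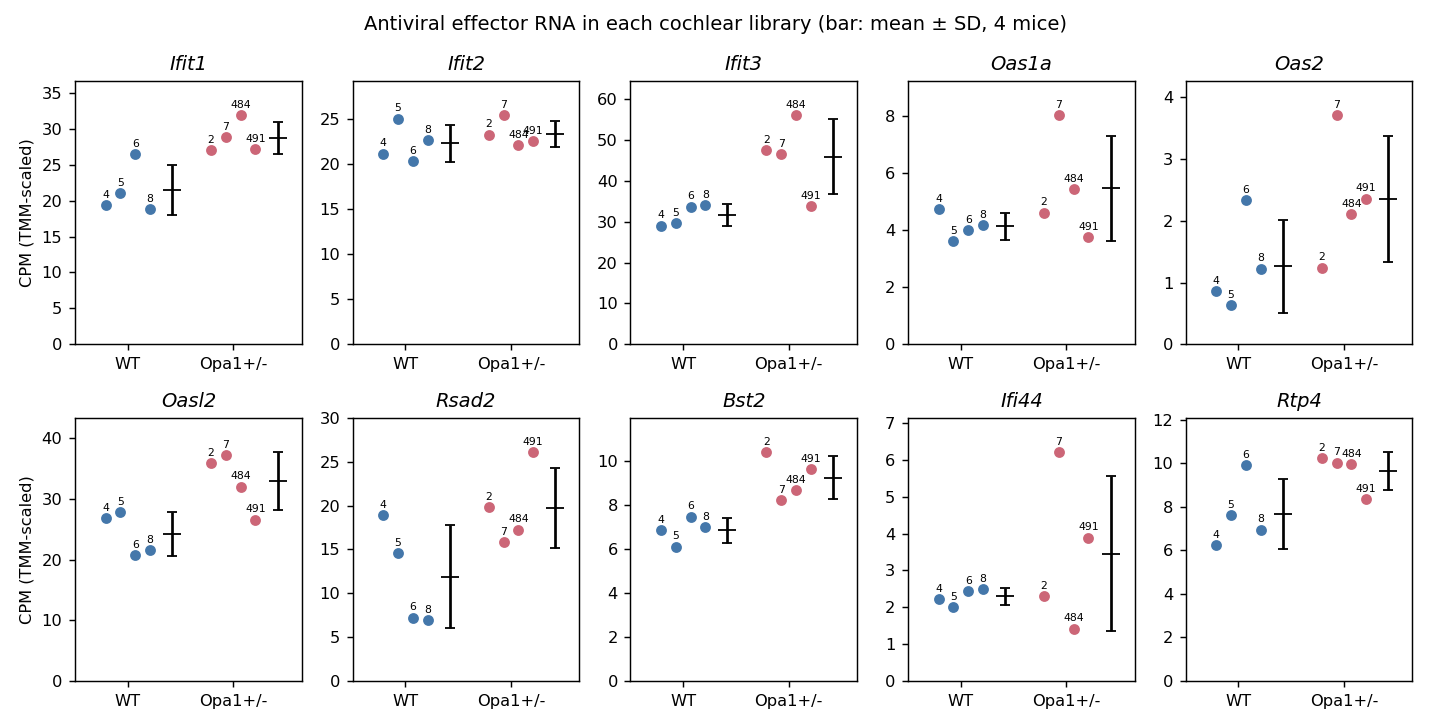
CPM of each of the 10 members in 4 WT (blue) and 4 Opa1+/- (red) cochlear libraries, with animal numbers above the points and the mean ± SD of each genotype as a black bar; each panel has its own axis from 0. Genotypes are apart in Ifit1 and Bst2 and overlap in the other 8.

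Compared per kilobase of exon, the WT level was highest for Ifit3, at 18.1 ± 1.53 CPM per kb (SD, n = 4), followed by Ifit1 at 8.06 ± 1.31, Bst2 at 7.59 ± 0.627 and Ifit2 at 5.67 ± 0.529 CPM per kb. Oasl2 (3.81 ± 0.565), Rtp4 (3.60 ± 0.750), Rsad2 (2.75 ± 1.35) and Oas1a (2.19 ± 0.248 CPM per kb) came next, and Ifi44 (0.374 ± 0.0371) and Oas2 (0.283 ± 0.169 CPM per kb) were lowest. The gap between neighbours exceeded the sum of their SDs at 4 places in that order, after Ifit3, after Bst2, after Ifit2 and after Oas1a. The pairs Ifit1 and Bst2, Oasl2 and Rtp4, Rtp4 and Rsad2, Rsad2 and Oas1a, and Ifi44 and Oas2 were not separated beyond their spread. Ifi44 and Oas2, the lowest, were covered by 23 to 124 and 13 to 74 counts per library. These lengths are unions of all annotated exons, and the order depends on that choice. Per kilobase of 1 annotated transcript, a length tried after seeing the data, Oasl2 was at 7.77 ± 1.152 CPM per kb and lay above Ifit2 (5.83 ± 0.545) by more than the sum of their SDs. On that scale Bst2 (8.66 ± 0.715) came before Ifit1 (8.06 ± 1.31) without being separated from it, and Ifi44 (0.788 ± 0.0782) was separated from Oas2 (0.318 ± 0.190 CPM per kb).

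The 3 IFIT genes, RNA-binding proteins with tetratricopeptide repeats, lie in 1 cluster on chromosome 19, with Ifit2 at 34550694 to 34576419, Ifit3 at 34583531 to 34588731 and Ifit1 at 34640871 to 34650009 (GRCm38, GENCODE vM21, all on the plus strand) and with Ifit1bl1, Ifit3b and Ifit1bl2 between Ifit3 and Ifit1. Ifit1, the member that recognises RNA without host cap methylation, was at 19.4, 20.996, 26.5 and 18.8 CPM in WT_4, WT_5, WT_6 and WT_8 and at 27.0, 28.8, 31.9 and 27.1 CPM in Het_2, Het_7, Het_484 and Het_491. The genotypes did not overlap, but WT_6 lay next to the lowest Opa1+/- mouse. The log2 fold change was 0.42 (SE 0.112), from 21.4 ± 3.49 to 28.7 ± 2.26 CPM. Ifit3, which forms complexes with the other IFIT proteins, was at 29.1, 29.6, 33.7 and 34.1 CPM in the WT mice and at 47.5, 46.5, 56.1 and 33.8 CPM in the Opa1+/- mice, in the same order of animals. In 3 Opa1+/- mice it was above all WT mice, and Het_491 lay within the WT range (log2 fold change 0.54, SE 0.136). Ifit2, another gene of the cluster, was at 21.1, 25.0, 20.3 and 22.6 CPM in the WT mice and 23.2, 25.4, 22.0 and 22.5 CPM in the heterozygotes. Its genotypes overlapped almost wholly, and its log2 fold change of 0.066 (SE 0.0826) was the smallest of the 10.

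Reads of Ifit3 could not all be told from those of a near-identical copy: 39.1% of the 80-base windows of its transcript, the length of a sequenced read, also occur in Ifit3b. Ifit3b itself was at 18.7 ± 2.09 CPM in the WT mice and 26.2 ± 5.61 CPM in the heterozygotes (log2 fold change 0.49, SE 0.149), and with the counts of both genes summed the log2 fold change was 0.52. Ifit1 shared 4.81% of its windows with Ifit1bl2, and Ifit2 shared 0 with any other gene.

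The OAS genes lie on chromosome 5, Oas1a at 120896256 to 120907521 and Oas2 at 120730333 to 120749853, both on the minus strand with 146.4 kb between them, and Oasl2 on the plus strand at 114896936 to 114912234, 5.82 Mb from Oas2. Oasl2, which joins an OAS fold to ubiquitin-like repeats, was at 26.8, 27.9, 20.8 and 21.6 CPM in the WT mice and at 35.9, 37.3, 32.1 and 26.6 CPM in the Opa1+/- mice. Het_491 was the only Opa1+/- mouse inside the WT range, and the log2 fold change was 0.44 (SE 0.130). Oas1a, an oligoadenylate synthetase, was at 4.74, 3.61, 4.00 and 4.16 CPM in the WT mice and 4.61, 8.02, 5.45 and 3.77 CPM in the heterozygotes. Only Het_7 and Het_484 were above the WT range, and the log2 fold change of 0.41 (SE 0.225) became 0.16 without Het_7. Oas2, a larger synthetase of the same family, was at 0.856, 0.635, 2.33 and 1.22 CPM in the WT mice and 1.24, 3.71, 2.10 and 2.36 CPM in the heterozygotes. The genotypes overlapped, with WT_6 close to 2 of the Opa1+/- mice, and the log2 fold change of 0.92 (SE 0.434), the highest of the 10, was 0.60 without Het_7 and 1.38 without WT_6. Oas1a shared 46.1% of its 80-base windows with Oas1g, which was at 2.71 ± 0.378 CPM in the WT mice and 3.48 ± 1.14 CPM in the heterozygotes, and the counts of both together gave a log2 fold change of 0.39. Oas2 and Oasl2 shared 0 windows with other genes.

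Rsad2 (viperin), on chromosome 12 at 26442746 to 26456452 on the minus strand, had the widest WT range in CPM of the 10 genes. It was at 18.9, 14.6, 7.23 and 6.90 CPM in WT_4, WT_5, WT_6 and WT_8, and at 19.8, 15.8, 17.3 and 26.1 CPM in Het_2, Het_7, Het_484 and Het_491. WT_4 was above Het_7 and Het_484, so that the genotypes overlapped, and the log2 fold change was 0.73 (SE 0.318). With 1 mouse left out it ran from 0.53 (without WT_8) to 1.04 (without WT_4). The coefficient of variation among WT mice was 49.2%, where counting error alone would give 6.70%.

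Bst2 (tetherin), on chromosome 8 at 71534255 to 71537456 on the minus strand, was at 6.85, 6.10, 7.47 and 7.001 CPM in the WT mice and 10.4, 8.22, 8.66 and 9.64 CPM in the heterozygotes. The genotypes did not overlap (log2 fold change 0.43, SE 0.115). With 120 to 176 counts per library, its coefficient of variation was 8.26% in WT and 10.6% in Opa1+/- mice, close to the 8.83% and 7.96% that counting error alone would give. Ifi44, an interferon-induced protein with a GTPase-like domain, was at 2.23, 2.00, 2.45 and 2.50 CPM in the WT mice and 2.31, 6.22, 1.42 and 3.89 CPM in the heterozygotes. Opa1+/- mice held both the highest and the lowest value, so that the coefficient of variation was 60.8% there against 9.92% in WT, with 12.7% and 15.3% given by counting error. Ifi44 lies on chromosome 3 at 151730922 to 151749960 on the minus strand, and its log2 fold change of 0.60 (SE 0.386) was 0.15 without Het_7.

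Rtp4, a chaperone that carries receptors to the cell surface and also binds RNA, lies on chromosome 16 at 23520291 to 23614222 on the plus strand, 5.97 Mb from Opa1. It was at 6.22, 7.62, 9.92 and 6.95 CPM in the WT mice and 10.2, 10.03, 9.96 and 8.36 CPM in the heterozygotes. In 3 Opa1+/- mice it was just above WT_6, and the other 3 WT mice were lower than all Opa1+/- mice (log2 fold change 0.33, SE 0.151). A noncoding gene, Gm45338, covers 13.9% of its exon bases on the same strand, and 12.2% of its 80-base windows occur there. Which parental strain the chromosome 16 interval came from in each mouse was not tested.

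No mouse was high in all members. Het_7 had the highest value of the 8 mice in 5 genes (Ifit2, Ifi44, Oas1a, Oas2 and Oasl2), Het_484 in Ifit1 and Ifit3, Het_2 in Bst2 and Rtp4, and Het_491 in Rsad2. No WT mouse was highest in any, in genes that were chosen on this contrast. Het_484, the highest in Ifit1 and Ifit3, was the lowest of all 8 in Ifi44. Het_491, the highest in Rsad2, was the lowest Opa1+/- mouse in Ifit3, Oas1a, Oasl2 and Rtp4. Among WT mice, WT_6 was highest in 4 genes, Ifit1, Bst2, Oas2 and Rtp4.

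With the genotype means taken out, the genes did not move as 1 block from mouse to mouse. Over the 45 pairs of members, Pearson's r of the log2 deviations in 8 mice had a median of -0.021 and ran from -0.65 (Ifit2 with Bst2) to 0.84 (Ifit1 with Rtp4), with 22 pairs above 0. A member's r with the mean of the other 9 had a median of 0.11, was above 0 in 7 of 10, was highest for Oas1a (0.57) and was lowest for Rsad2 (-0.59). These are descriptions over 8 deviations with 6 degrees of freedom, in which the points share library depth and counting error. The median was -0.43 without Het_7. Of 17956 genes with a mean of at least 1 CPM, the 5 whose deviations were most like the mean of the 10 were Zfp423 (r = 0.979), Gm3809 (0.974), Chst15 (0.972), Gm12416 (0.968) and Prdm11 (0.965), and none of them is in an interferon list used here.

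**Figure D3:**
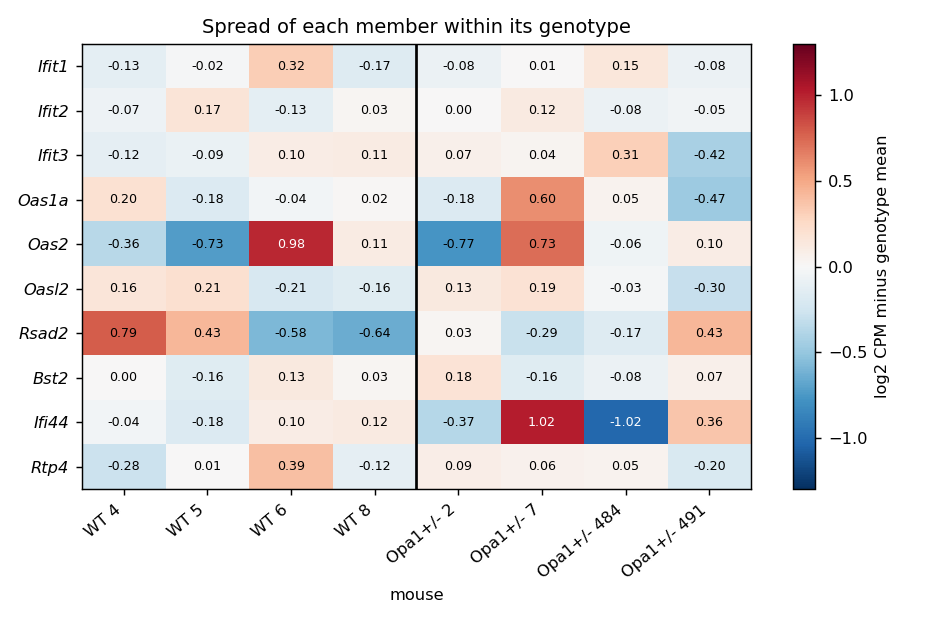
Deviation of each member (rows) in each mouse (columns) from its genotype mean, in log2 CPM, with WT left and Opa1+/- right of the black line. Ifi44 reaches 1.02 in Het_7 and -1.02 in Het_484, Rsad2 is opposite in WT_4 (0.79) and WT_8 (-0.64), and no column has 1 colour throughout.

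The members were also set against the RNA of red blood cells and of 8 other cell types. The summed level of 8 erythroid markers, globins and red cell membrane and heme genes, was 21435, 12310, 8727 and 7741 CPM in WT_4, WT_5, WT_6 and WT_8 and 15429, 15050, 18438 and 25040 CPM in Het_2, Het_7, Het_484 and Het_491, with WT_4 inside the Opa1+/- range. The erythroid sum was 1.47 times as high in Opa1+/- mice, with 8 of 8 markers higher (exact two-sided permutation test, p = 0.171, adjusted p = 0.771 over 9 marker lists). Rsad2 ran with this sum across the 8 mice, with Pearson's r = 0.935 (exact permutation p = 0.00107) and Spearman's rho = 0.929 (exact permutation p = 0.00223). Among 90 relations of a member with a marker sum, the adjusted p of this one was 0.0960 for r and 0.100 for rho by exact permutation, so it missed the threshold, as did all the others of the 90. The permutation took no account of genotype, and both Rsad2, by its choice, and the sum were higher in Opa1+/- mice in the mean. Its p thus includes the genotype difference. Without the 2 mice farthest from the median sum r was 0.831, and with genotype means removed, where no p was computed, it was 0.917. For the other 9 members r with the erythroid sum lay between -0.093 and 0.452 across the 8 mice. With genotype means removed it was below 0 in all 9, from -0.698 for Rtp4 and -0.580 for Ifit3 to -0.013 for Bst2. With the log2 erythroid sum as a covariate, a fit chosen after seeing the data, the log2 fold change of Rsad2 was 0.19 (SE 0.171) in place of 0.73, and those of the other 9 lay between 0.093 for Ifit2 and 1.38 for Oas2. The value of Rtp4 was 0.53 (SE 0.162) in place of 0.33, and that of Ifit3 was 0.70 (SE 0.147) in place of 0.54.

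After Rsad2 with erythroid RNA, the lowest adjusted p for r among the 90 relations was that of Rtp4 with endothelial RNA. The summed level of 8 endothelial markers, genes of the vessel lining, was 286.7, 305.1, 309.3 and 288.9 CPM in WT_4, WT_5, WT_6 and WT_8 and 342.5, 333.5, 316.6 and 288.5 CPM in Het_2, Het_7, Het_484 and Het_491. In 3 heterozygotes it was above all WT mice and in Het_491 within the WT range, with 8 of 8 markers higher in the mean (exact two-sided permutation test, p = 0.143, adjusted p = 0.771). For Rtp4 Pearson's r with this sum was 0.833 (exact permutation p = 0.0132, adjusted p = 0.595) and Spearman's rho was 0.929 (exact permutation p = 0.00223, adjusted p = 0.100), which also missed the threshold. Without the 2 mice farthest from the median r was 0.817, and with genotype means removed it was 0.736. Across the 8 mice r with the endothelial sum was above 0 for all 10 members, from 0.049 for Rsad2 to 0.833 for Rtp4. It was 0.786 for Oasl2 and 0.725 for Ifit3. The sum was higher in Opa1+/- mice in the mean, as were the 10 members by their choice, and the permutation took no account of genotype. With genotype means removed, r was 0.654 for Oasl2, 0.538 for Ifit3, 0.378 for Oas1a, 0.315 for Ifit1 and 0.305 for Ifit2. It was 0.064 for Oas2, 0.025 for Bst2 and 0.018 for Ifi44, and Rsad2 was the only member below 0, at -0.531. With the log2 endothelial sum as a covariate, again a fit chosen after seeing the data, the log2 fold change of Rtp4 was 0.14 (SE 0.150) in place of 0.33, and that of Rsad2 was 0.98 (SE 0.369) in place of 0.73. The values of Ifi44, Bst2 and Oas2 moved little, at 0.59, 0.43 and 0.83 in place of 0.60, 0.43 and 0.92. Those of Oas1a, Oasl2, Ifit3, Ifit1 and Ifit2 were 0.21, 0.28, 0.37, 0.35 and 0.023 in place of 0.41, 0.44, 0.54, 0.42 and 0.066, and the median of the 10 was 0.36.

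**Figure D4:**
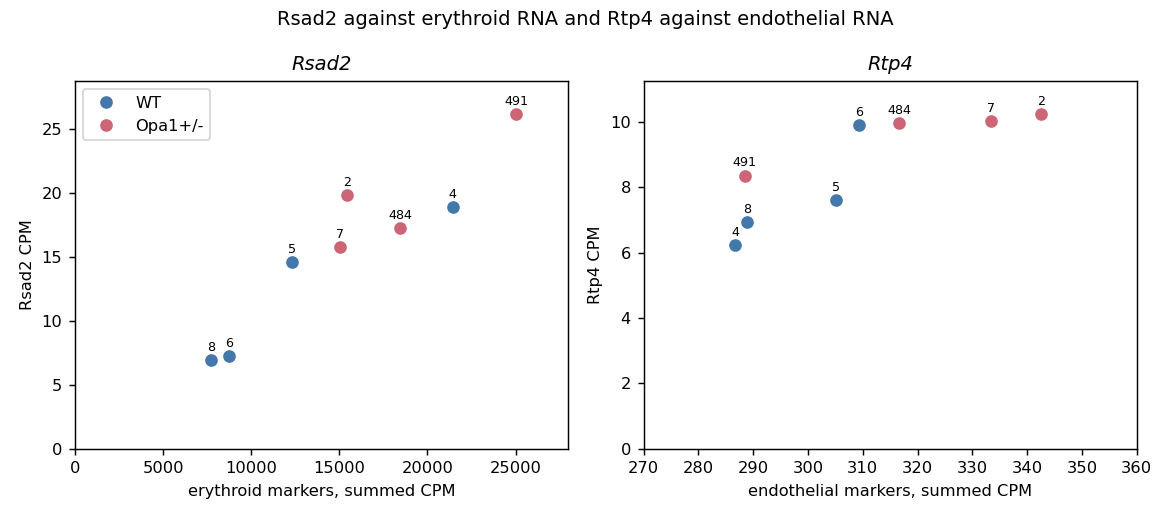
CPM of Rsad2 against the summed CPM of 8 erythroid markers (left) and of Rtp4 against that of 8 endothelial markers (right, on an axis that does not start at 0) in 4 WT (blue) and 4 Opa1+/- (red) mice, numbered by animal. Mice with a high marker sum have a high level of the member in both genotypes, with r = 0.935 on the left and r = 0.833 on the right.

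For the other immune cell types the genotypes overlapped. Macrophage markers, all 9 of 9 detected, summed to 121.9 to 202.8 CPM in WT and 143.4 to 188.7 CPM in Opa1+/- mice, and the 5 markers of plasmacytoid dendritic cells, the main makers of type I interferon, to 10.5 to 42.9 and 10.8 to 24.9 CPM. Neutrophil markers (10) ran from 435.5 to 1428 and from 457.9 to 1183 CPM, B cell markers (7) from 11.9 to 32.4 and from 13.5 to 23.9 CPM and T and NK cell markers (8) from 4.21 to 7.53 and from 5.03 to 7.79 CPM. With 70 arrangements the smallest exact p is 0.0286, and a single list adjusted over 9 cannot go below 0.257, so that missing the threshold here says nothing on whether a list differed. With genotype means removed, r with the plasmacytoid dendritic cell sum was 0.823 for Ifit1, 0.803 for Oas2 and 0.732 for Rtp4. It was -0.543 for Rsad2, -0.461 for Ifit2 and -0.262 for Oasl2, and between 0.038 and 0.354 for the other members. With the neutrophil sum it ran from -0.698 for Rtp4 to 0.764 for Rsad2. These values with genotype means removed were not tested. No marker in the files was at 0 in all mice.

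The rest of the pathway was read from 7 lists of 100 genes, of which 73 were tested. None passed an adjusted p of 0.05 in edgeR, 19 had an unadjusted p under 0.05 and a higher level in Opa1+/- mice, and 0 had one with a lower level (3.51% and 3.22% of all genes tested). A log2 fold change above 0 was found in 58, against 50.1% of all genes tested. DESeq2 called 1 of them, Isg15, named after its value was seen. At the top of the pathway, the 20 interferon genes together had 4 counts in all 8 libraries, with never more than 1 count of a gene in a mouse, and Ifnb1 had 0. For Ifnb1 a count of 0 allows up to 3 counts, or 0.146 to 0.191 CPM per library, counting error alone considered. Receptors, kinases and transcription factors had a median log2 fold change of 0.097, with 9 of 15 above 0. The highest of them in CPM, not scaled to length, were Jak1 (221.3 ± 43.2 CPM in WT and 210.2 ± 22.6 in Opa1+/- mice), Ifnar1 (52.8 ± 3.49 and 49.2 ± 2.78 CPM) and Ifnar2 (45.3 ± 4.50 and 49.7 ± 2.00 CPM). The list of sensors of foreign nucleic acid, which also holds signalling partners, had a median of 0.041, with 7 of 12 above 0. Its highest genes in CPM were the kinase Tbk1 (45.2 ± 3.69 and 43.7 ± 1.29 CPM), the RNA helicase Ddx58 (31.1 ± 1.99 and 32.0 ± 3.45 CPM) and its mitochondrial adaptor Mavs (29.2 ± 1.67 and 28.2 ± 4.46 CPM).

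Target genes of the pathway outside the 10 members had medians between 0.14 and 0.49. The closest relatives of the members had a median of 0.49, and 9 of the 9 tested were above 0, against 50.1% of all genes tested. Ifit3b, Oas1g and Ifit1bl2 share read windows with Ifit3, Oas1a and Ifit1, so their counts can include reads of these members. Among the relatives Oas3, the largest synthetase, had a log2 fold change of 1.16 (SE 0.387), from 1.02 ± 0.517 to 2.26 ± 0.691 CPM. Oasl1 (0.55), Oas1b (0.53), Ifit1bl2 (0.53), Rtp3 (0.38), Ifit1bl1 (0.26) and Oas1c (0.089) completed the list beside Ifit3b and Oas1g, and 7 further relatives, among them Ifi44l and 4 Oas1 genes, were too low to test, with 0 to 24 counts per library. Interferon-induced GTPases had a median of 0.32, with 13 of 13 above 0. In CPM, not scaled to length, they were led by Gbp6 (28.8 ± 0.791 and 29.9 ± 6.14 CPM), Gbp7 (19.7 ± 2.90 and 24.6 ± 4.45 CPM) and Irgm1 (20.04 ± 0.917 and 21.003 ± 1.17 CPM). Genes of ISG15 conjugation, a ubiquitin-like tag, had a median of 0.20 (5 of 5 above 0), with Ube2l6 at 27.5 ± 8.22 and 35.9 ± 5.34 CPM, Uba7 at 13.9 ± 1.04 and 15.9 ± 2.61 CPM and Herc6 at 9.16 ± 0.741 and 10.4 ± 1.28 CPM. Other antiviral effectors had a median of 0.14 (15 of 19 above 0), with the membrane proteins Ifitm3 (108.5 ± 15.3 and 128.5 ± 4.74 CPM) and Ifitm2 (58.6 ± 5.09 and 64.4 ± 6.30 CPM) and the mitochondrial Ifi27 (92.2 ± 13.9 and 114.3 ± 9.19 CPM) as the highest in CPM.

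**Figure D5:**
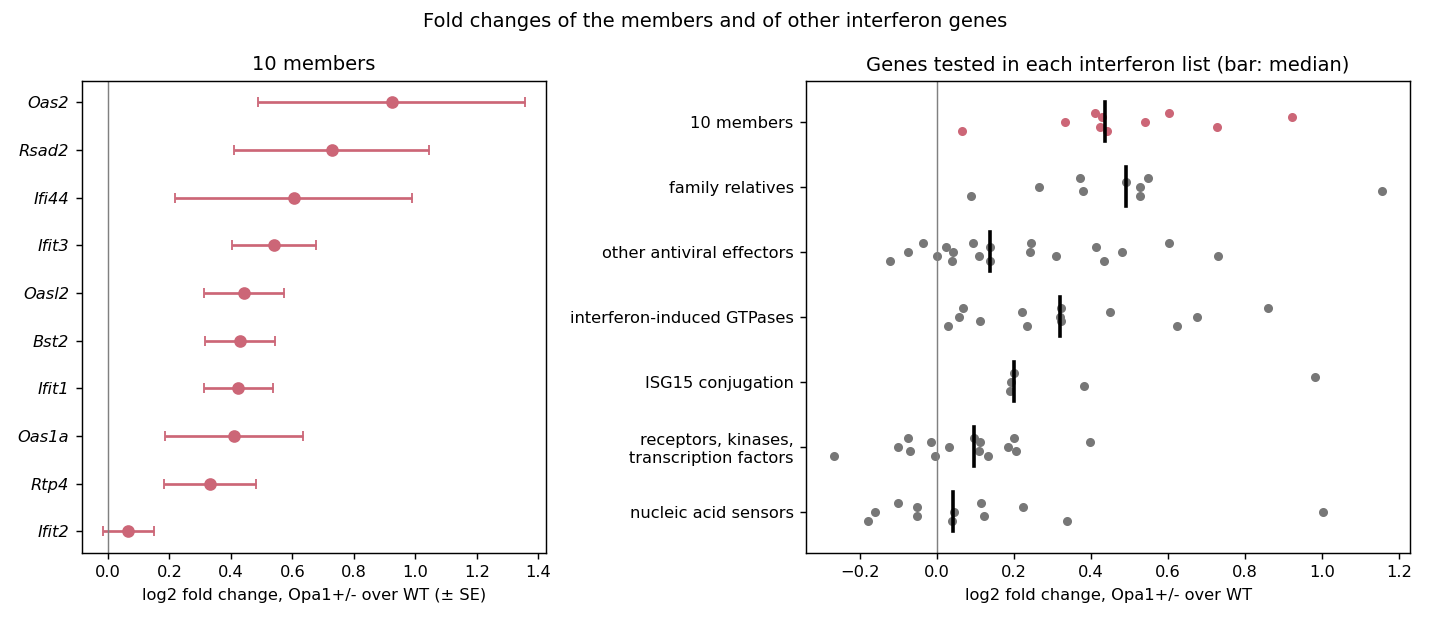
Left, log2 fold change of Opa1+/- over WT with its SE for the 10 members, which were chosen on this contrast. Right, the same quantity for every tested gene of 6 interferon lists (grey points) beside the members (red), with the median as a black bar; medians run from 0.041 in nucleic acid sensors to 0.49 in family relatives.

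The ISRE letters, held by 3.44% of all promoter windows, were present in 9 of 9 interferon-induced GTPases with a window, in 6 of 12 family relatives, in 5 of 14 other effectors and in 1 of 4 genes of ISG15 conjugation. The 14 receptors, kinases and transcription factors with a window held it in 1 gene, the 7 genes of the sensor list in 2 and the 19 interferon genes in 11. Cmpk2, whose start lies near that of Rsad2 and which was picked for that position after its values were seen, with 12.75 kb between the genes, was at 14.5 ± 1.74 CPM in the WT mice and 15.6 ± 1.09 CPM in the heterozygotes (log2 fold change 0.11, SE 0.102).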

How the data were processed

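Cochlear RNA seq libraries of 4 WT and 4 Opa1+/- mice were grouped by the sample titles. The authors prepared CORALL libraries, sequenced pairs of 80-base reads, used molecular identifiers and mapped reads with STAR to GRCm38, and the submitters' notes also name FastQC. The deposited values are raw counts per gene symbol, whole numbers without normalization. The counting program and its use of strand are not given in the sources used here. Entries with a number in place of a symbol (15, at most 0.124% of counts) were left out.

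Genes with a mean count over 10 after DESeq2 size factors were tested with edgeR 4.0.16 (TMM factors, quasi-likelihood test, Benjamini-Hochberg adjustment) in R 4.3.3, with DESeq2 1.42.0 as an alternative. The test was run first on simulated counts. The SE is that of the fitted log2 fold change. Single values per mouse were compared by exact permutation of 70 arrangements, and correlations by all 40320 pairings with no regard to genotype. CPM per kb used exon unions of GENCODE vM21. The members, lists and markers were chosen with earlier results of these data known. Named were all members, Opa1, tested relatives, the 3 genes of each other list with the highest CPM, not scaled to length, and the 5 genes most like the members. Outside this rule, Cmpk2, Isg15, Ifnb1, Ifi44l, Gm45338 and the genes of the other observations were named after their values were seen.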

Additional observations from a re-analysis of the deposited data

Results flagged for a closer look

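In 4 mice of 1 genotype, a value was singled out where its gap to the nearest mouse exceeded the Dixon limit, a test that chance passes in about 1 in 20 groups, and 5 of 40 group values met it. Rtp4 in Het_491 was at 8.36 CPM, below the 9.96 to 10.2 CPM of the other 3 Opa1+/- mice. The summed hair cell markers of Het_7 were at 232.7 CPM, with the others at 246.3 to 248.2 CPM. The summed spiral ganglion neuron markers of WT_5 were at 5187 CPM, with the others at 6050 to 6160 CPM. WT_4 stood out in neutrophil markers, at 1428 CPM against 435.5 to 532.2 CPM, and in B cell markers, at 32.4 CPM against 11.9 to 14.9 CPM. None of these was tested further.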

How the results depend on the processing

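All 180 values of a single member under 18 alternatives stayed above 0, and none of the 10 genes was called in any of them. The genes were chosen on this contrast and the alternatives reuse the same libraries, so the shared sign is a description only. Their median log2 fold change of 0.44 was 0.40 to 0.54 with 1 mouse left out and 0.58 without both Opa1+/- mice with 3-digit animal numbers. Their log2 fold changes with 1 mouse left out ran from 0.15 to 0.86 for Ifi44, 0.16 to 0.55 for Oas1a and 0.60 to 1.38 for Oas2, each lowest without Het_7, from 0.53 to 1.04 for Rsad2, and from 0.022 (without Het_7) to 0.13 (without WT_5) for Ifit2. The ratio of the summed levels was 1.32 to 1.39. The covariation within genotype, a median r of 0.11, ran from -0.43 (without Het_7) to 0.21. Of the 73 tested pathway genes DESeq2 called 1, and the other alternatives called 0. The count of genes called over the whole table, 5, was 23 with DESeq2, 12 with no filter on low counts, 0 to 9 with 1 mouse left out, 0 without both mice with 3-digit numbers and 0 with the erythroid covariate. The log2 fold change of Opa1 ran from -0.90 to -0.83 with 1 mouse left out, and it missed the threshold without Het_2 (-0.85, adjusted p = 0.0704 in edgeR's quasi-likelihood test), without both mice with 3-digit numbers (-0.86, adjusted p = 0.260) and with the erythroid covariate (-0.89, adjusted p = 0.0538), fits with fewer degrees of freedom. The erythroid and endothelial covariates and the summing of near-identical copies were added after seeing the data. The sample titles give genotype and animal number but no litter, so no paired analysis was made and a litter effect was not tested. Depth limits Oas2 and Ifi44 most, whose counting error at the mean count of a genotype was 12.7% to 20.9%.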

Other observations

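Outside the 10 members, every Opa1+/- mouse was above every WT mouse in 5 of the 73 tested pathway genes (1.98% of all genes tested) and below in 0 (2.33%). The 5 were picked here after their values were seen. Zbp1, a sensor of left-handed nucleic acid that can start necroptosis, was at 1.27 to 1.49 CPM in WT and 2.13 to 3.86 CPM in Opa1+/- mice. Iigp1, a GTPase that attacks the vacuoles of intracellular parasites, was at 2.93 to 4.35 and 4.53 to 7.98 CPM. Mx1, a dynamin-like antiviral GTPase, was at 1.20 to 1.66 and 1.77 to 3.41 CPM. Isg15, the ubiquitin-like tag itself, was at 4.36 to 7.31 and 9.02 to 11.9 CPM. Oas1b, a synthetase gene annotated as a polymorphic pseudogene, was at 1.22 to 2.69 and 2.74 to 2.90 CPM, with 24 to 57 counts per library. Its coefficient of variation in Opa1+/- mice was 2.29%, below the 14.3% that counting error alone would give, so their closeness is not read as a trait. The gap between the genotypes, from 2.69 to 2.74 CPM, lies within that error. None of the 5 passed an adjusted p of 0.05 in edgeR's quasi-likelihood test, and DESeq2 called Isg15 alone.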
